A study of Bos indicus and Bos taurus with 17 samples.

Results

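Zinc transporter genes and the zinc sensor gene MTF1 were followed in cells captured as epithelial from the milk of Kashmiri and Jersey cows. Milk was taken after 15, 90 and 250 days of lactation (D15, D90 and D250). The members were chosen by name: the exporters SLC30A1, SLC30A2, SLC30A4 and SLC30A5, the importers SLC39A1, SLC39A7, SLC39A8 and SLC39A14, the metallothionein MT2A and the transcription factor MTF1. Of these 10 names, 9 were found among the 25121 named entries of the expression table, which has 61264 entries in all. The name MT2A was not found, alone or joined to another name, so no value of MT2A is given and the members described are transporters and MTF1. SLC30A4 was found in a pair of entries with unlike values, and both are given throughout.

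The groups were Kashmiri D15, D90 and D250, with 3 labelled samples each, and Jersey D15, D90 and D250, with 3, 2 and 3 labelled samples. All samples were untreated milk cells that the study captured on magnetic beads with an antibody to keratin 18, and the labels put each cow in lactation 2 or 3. Lactation number was uneven: Kashmiri D90 and Jersey D250 were all in lactation 2, Kashmiri D15 and D250 had 1 sample in lactation 2 and 2 in lactation 3, Jersey D15 had 2 and 1, and Jersey D90 had 1 and 1. Its part in the differences between stages and breeds was not tested. The paper instead puts all cows in lactation 3 and describes 3 cows per breed, each sampled at all 3 stages. This conflict with the labels is not resolved here. Every sample of D15 was taken in March, of D90 in July and of D250 in December, so the stage of lactation and the season cannot be told apart. The unit is FPKM, which counts sequenced fragments relative to transcript length and library size, so that levels of different genes can be compared per length. The table holds 1 value for each group, made by the authors from its libraries. No spread between cows can be computed from it, and no test between groups was possible with it. Every comparison below describes group values only. The paper tested differences between stages and between breeds with Cuffdiff, and its test results are not given here. The number of reads behind a value is unknown.

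Zinc is secreted into milk and is needed by the growing calf. The SLC30 (ZnT) proteins move zinc out of the cytosol, either across the plasma membrane or into vesicles and the Golgi, while the SLC39 (ZIP) proteins move it into the cytosol from outside the cell or from organelles. MTF1 is the transcription factor that senses zinc in the cell and activates metallothionein genes and SLC30A1.

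The 6 groups differed in the marker genes of other cell types. All 10 epithelial markers (KRT7, KRT8, KRT18, KRT19, EPCAM, CDH1, ELF5, EHF, CLDN3 and CLDN4) had at least 1 FPKM in each group, and their summed level ranged from 98.2 FPKM in Jersey at D90 to 5780 FPKM in Kashmiri at D15. CSN2, the beta casein gene, was listed at 0 in 5 of the 6 groups. The paper reports CSN2 among the highest genes in every group, so these zeros are not read as its absence. By qPCR on D90 samples, the paper found more CSN2 and KRT18 in captured cells than in all milk cells. LSP1, HBA and CD18 were lower there. The 6 neutrophil markers used of 9 (CSF3R, S100A8, S100A9, S100A12, MMP9 and TREM1) summed to between 168 and 591 FPKM in Kashmiri and between 4893 and 13287 FPKM in Jersey cows, and all 6 were higher in Jersey cows on each day. The neutrophil sum was above the epithelial sum in all 3 Jersey groups and below it in all 3 Kashmiri groups, and KRT18, the capture target, was lowest in Jersey at D90 with 1.59 FPKM. The markers thus go against a purely epithelial make-up of the Jersey cells. The same holds for Kashmiri D90, where the T cell marker sum, 1345 FPKM, was above the epithelial sum, 679 FPKM. Kashmiri D15 and D250 are not taken as purely epithelial either. Their T cell sums were 304 and 291 FPKM and their neutrophil sums 168 and 591 FPKM, each below the epithelial sum. The 8 macrophage markers summed to between 82.9 and 2043 FPKM, the 5 T cell markers to between 61.8 and 1345 FPKM, and the 4 B cell markers to between 6.46 and 66.7 FPKM. Red blood cell markers summed to less than 1 FPKM in each group, with HBB at 0 in 3 groups. In such bulk samples, fewer cells of a type and less RNA per cell cannot be told apart.

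A rescaling of FPKM multiplies the ratio of every gene in a comparison by 1 factor. Rescaling to a total that leaves out the milk protein genes changed ratios by 2.01-fold between D15 and D250 and 1.62-fold between D90 and D250 in Kashmiri cows, both towards D250, and by 1.71-fold between the breeds at D250, towards Kashmiri cows. In the other 6 comparisons this factor was 1.34 or less, and with the upper quartile it was 1.41 or less in all 9. Every plain fold below that involves Kashmiri D250 is therefore less certain than the others.

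SLC30A2, the vesicle exporter that loads zinc for secretion in mammary cells, had the widest range of the members. In Kashmiri cows it stood at 57.4 FPKM on D15, 6.25 FPKM on D90 and 10.8 FPKM on D250, and the Jersey levels on those days were 9.97, 0.174 and 5.64 FPKM. In both breeds it was highest at D15 and lowest at D90, and on each day it was lower in Jersey than in Kashmiri cows. The highest group value was 329.7 times the lowest. Between D15 and D90 it was 9.20-fold lower at D90 in Kashmiri and 57.2-fold lower in Jersey cows. With a pseudocount of 1 FPKM added to both values, its log2 ratios were -3.01 and -3.22. On that scale only 1.10% and 1.07% of all genes compared had a lower ratio. From D90 to D250 it was 1.72-fold higher at D250 in Kashmiri and 32.4-fold higher in Jersey cows. At D250 it was still 5.33-fold below its D15 level in Kashmiri cows and 1.77-fold below it in Jersey cows. Jersey cows had 5.76-fold less at D15, 35.9-fold less at D90 and 1.91-fold less at D250. None of these 9 directions turned with any of the scalings tried, but 3 sizes moved with FPKM rescaled to that total. The Kashmiri level at D250 was then 2.65-fold below D15 and 2.79-fold above D90, and the Jersey level at D250 was 3.26-fold below the Kashmiri one. The range and the folds that involve Jersey D90 rest on 0.174 FPKM, which is under 1 FPKM and comes from 2 samples. Their sizes are therefore uncertain. With the pseudocount, the log2 ratio was 2.50 for D250 over D90 in Jersey cows and -2.63 for Jersey over Kashmiri cows at D90.

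The epithelial markers moved with SLC30A2 in part. Their sums were 5780, 679 and 2570 FPKM for Kashmiri cows at D15, D90 and D250, and 2658, 98.2 and 1364 FPKM in Jersey cows, so that they too were lowest at D90 in each breed. Expressed per 1000 FPKM of the summed epithelial markers, SLC30A2 was 9.94, 9.20 and 4.19 in Kashmiri and 3.75, 1.78 and 4.14 in Jersey cows. On this relative scale the highest value was 5.60 times the lowest. It was close between D15 and D90 in Kashmiri cows and lowest at D90 in Jersey cows. The epithelial sum leans on KRT19 and ELF5, with 3195 and 1799 FPKM in Kashmiri at D15. All 10 markers were lower at D90 than at D15 in each breed. Between D15 and D250, 7 were lower and 3 were higher in each breed. The part of the epithelial markers in the SLC30A2 differences was not tested.

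SLC30A4 is an exporter of vesicle membranes whose loss in mice gives zinc-poor milk. The entry that carried its name alone had 5.15, 0.728 and 2.65 FPKM for Kashmiri cows at D15, D90 and D250, and 1.16, 1.58 and 5.64 FPKM in Jersey cows. In Kashmiri cows D90 was the lowest day, while in Jersey cows the level was higher on each later day. It was 7.07-fold lower at D90 than at D15 in Kashmiri cows and 1.36-fold higher in Jersey cows. At D15 it was 4.44-fold lower in Jersey than in Kashmiri cows, and at D90 and D250 it was 2.17-fold and 2.13-fold higher. The last became 1.25-fold with FPKM rescaled to that total and 1.51-fold with the upper quartile. The folds that involve Kashmiri D90 rest on 0.728 FPKM, which is under 1 FPKM, so their sizes are uncertain. With the pseudocount, the log2 ratio was -1.83 for D90 over D15 in Kashmiri cows and 0.58 for Jersey over Kashmiri cows at D90.

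The second entry joined SLC30A4 to C15orf48 and bta-mir-147, a gene and a microRNA known to be induced in inflammatory cells. It had 27.0, 34.0 and 32.6 FPKM for Kashmiri cows at D15, D90 and D250, and 264, 497 and 1022 FPKM in Jersey cows. This entry had the higher mean of the pair, 313 FPKM against 2.82 FPKM, and is therefore the one taken for SLC30A4 in the counts below. How much of it came from SLC30A4 cannot be told from the table, and neither C15orf48 nor bta-mir-147 was carried by any other entry. It was 9.80-fold, 14.6-fold and 31.4-fold higher in Jersey than in Kashmiri cows on the 3 days, the last becoming 18.4-fold with FPKM rescaled to that total. Across the groups the joined entry ranged 37.9-fold, but per 1000 FPKM of the summed neutrophil markers it lay between 54.0 and 161, a range of 2.98-fold. The entry of SLC30A4 alone ranged 7.74-fold in FPKM and 129.5-fold against the same neutrophil sum. The part of the neutrophil markers in these differences was not tested.

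**Figure D1:**
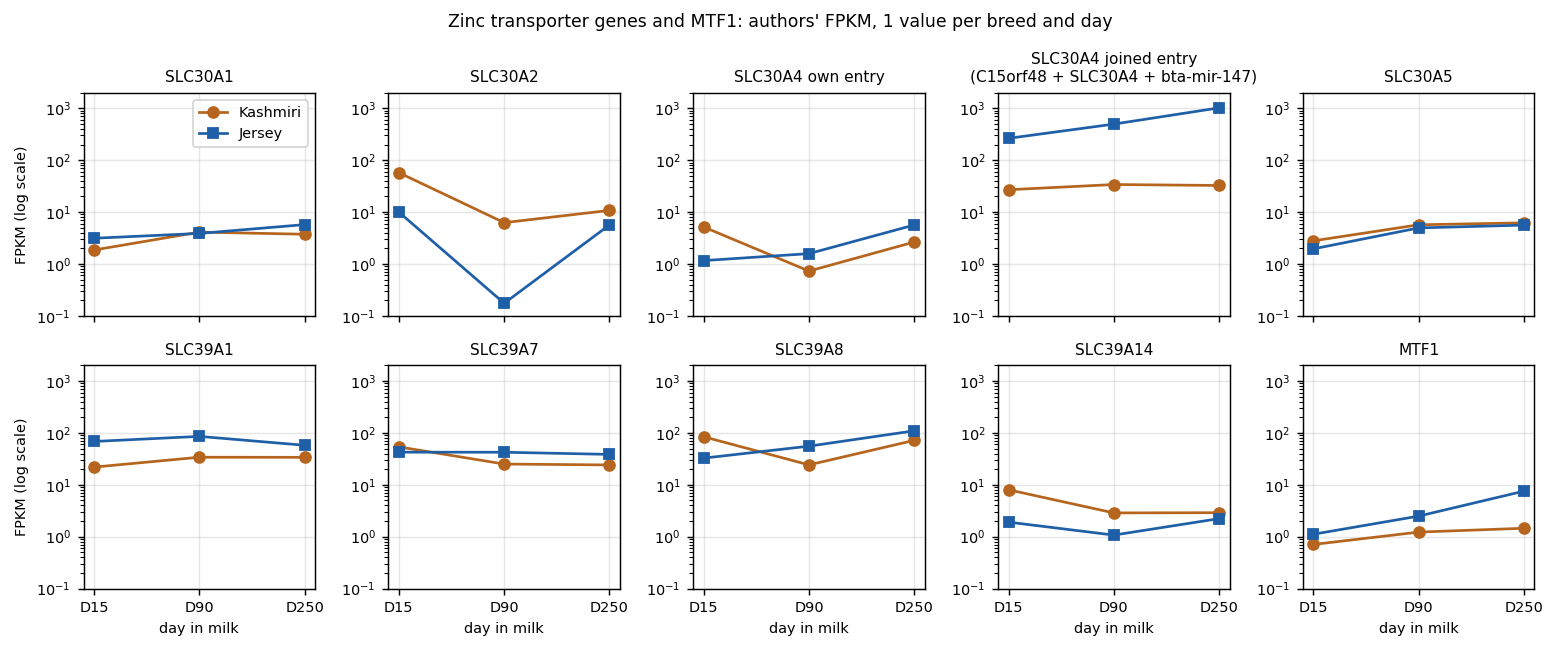
FPKM on a log axis against day in milk for each entry, with Kashmiri cows as circles and Jersey cows as squares, each point being the authors' single value for a group, without error bars. SLC30A2 dips at D90 in both breeds, to 6.25 FPKM in Kashmiri and 0.174 FPKM in Jersey cows, while the joined SLC30A4 entry lies above 260 FPKM in Jersey and below 35 FPKM in Kashmiri cows.

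**Figure D2:**
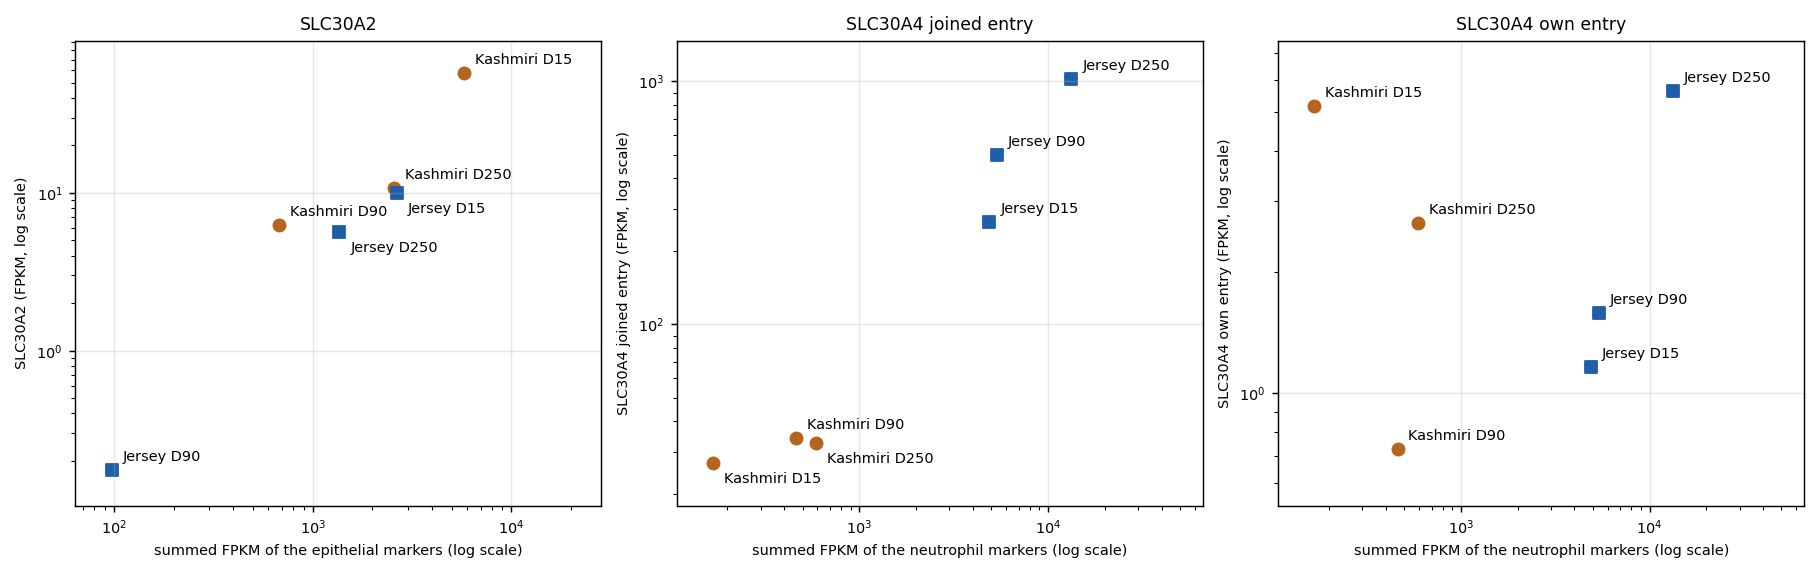
FPKM of SLC30A2 against the summed FPKM of the epithelial markers, and FPKM of the joined and of the own SLC30A4 entry against the summed FPKM of the neutrophil markers, on log axes, with 1 point for each of the 6 groups. The 3 Jersey points of the joined entry lie above and to the right of the 3 Kashmiri points, whereas the own entry has its 2 highest values at Kashmiri D15 and Jersey D250, at opposite ends of the neutrophil sum.

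SLC30A1 exports zinc across the plasma membrane and is a known target of MTF1. It had 1.85, 4.11 and 3.74 FPKM in Kashmiri cows and 3.13, 3.87 and 5.73 FPKM in Jersey cows at D15, D90 and D250. Both breeds were lowest at D15, and the highest and lowest groups were 3.09-fold apart. In Kashmiri cows it was 2.22-fold higher at D90 than at D15. With a pseudocount of 1 FPKM it was less than 2-fold apart in all 9 comparisons, although between D15 and D250 in Kashmiri cows its log2 ratio moved from 0.73 to 1.48 when FPKM was rescaled to that total.

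SLC30A5, which supplies zinc to enzymes of the early secretory pathway together with SLC30A6, had 2.79, 5.68 and 6.21 FPKM in Kashmiri cows. In Jersey cows it had 1.95, 4.95 and 5.60 FPKM. Both breeds were lowest at D15 and highest at D250, although the order of D90 and D250 in Jersey cows turned with rescaled FPKM (log2 ratio 0.18 as deposited and -0.08 by the upper quartile). The level at D250 was 2.23-fold above D15 in Kashmiri and 2.87-fold above it in Jersey cows. Jersey cows had the lower value on each day, by 1.43-fold at D15, 1.15-fold at D90 and 1.11-fold at D250. At D250 the difference became 1.89-fold with FPKM rescaled to that total and 1.57-fold with the upper quartile. At D90 the direction turned with FPKM rescaled to that total (log2 ratio, Jersey over Kashmiri, -0.17 as deposited and 0.12 rescaled, with the pseudocount).

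SLC30A6, the partner of SLC30A5 and no member, was also lowest at D15, with 0.355, 1.24 and 1.58 FPKM in Kashmiri and 0.410, 2.44 and 2.24 FPKM in Jersey cows. It is named here for its pairing with SLC30A5, a choice made after its values were seen.

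SLC39A8, a plasma membrane importer of zinc and manganese that is known to be induced by inflammatory signals, had the highest mean of the members with an entry of their own, 63.2 FPKM. It had 84.4, 24.2 and 72.0 FPKM for Kashmiri cows at D15, D90 and D250 and 32.7, 55.7 and 110.0 FPKM in Jersey cows. Kashmiri cows had their lowest value at D90, whereas the Jersey values were higher on each later day. Between D15 and D90 SLC39A8 was 3.48-fold lower in Kashmiri and 1.70-fold higher in Jersey cows, and these directions held with the scalings tried. Between D90 and D250 it was higher in both, 2.97-fold in Kashmiri and 1.98-fold in Jersey cows, and in Kashmiri cows 97.1% of all genes compared had a lower ratio. Jersey cows had 2.58-fold less than Kashmiri cows at D15, 2.30-fold more at D90 and 1.53-fold more at D250. The last of these turned with FPKM rescaled to that total, to a log2 ratio of -0.16. The epithelial marker sum was also lowest at D90 in Kashmiri cows. In Jersey cows the neutrophil marker sum also became higher on each later day, from 4893 to 5384 and 13287 FPKM. Neither sum followed SLC39A8 in both breeds. The Jersey epithelial sum was lowest at D90 too, with 98.2 FPKM, and the Kashmiri neutrophil sum went from 168 to 463 and 591 FPKM. The part of these markers in the SLC39A8 differences was not tested.

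SLC39A14, a relative of SLC39A8 that takes up zinc, manganese and iron and belongs to the acute phase genes of the liver, was far lower. It had 8.02, 2.87 and 2.90 FPKM in Kashmiri cows and 1.91, 1.07 and 2.23 FPKM in Jersey cows. Kashmiri D15 stood above the other 5 groups, which lay between 1.07 and 2.90 FPKM. It was 2.79-fold lower at D90 than at D15 in Kashmiri and 1.78-fold lower in Jersey cows. On each day it was lower in Jersey cows, by 4.20-fold at D15, 2.68-fold at D90 and 1.30-fold at D250, where it was 2.22-fold with FPKM rescaled to that total. In Kashmiri cows the log2 ratio of D250 over D15 was -1.21 with the pseudocount and -0.39 with FPKM rescaled to that total.

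SLC39A1, a plasma membrane importer found in most cell types, had 22.0, 34.1 and 33.9 FPKM in Kashmiri cows and 68.6, 85.9 and 57.9 FPKM in Jersey cows. All 3 Jersey values were above all 3 Kashmiri values. Jersey cows had 3.12-fold more at D15, 2.52-fold more at D90 and 1.71-fold more at D250. With FPKM rescaled to that total, the log2 ratio at D250 was 0.0011, so that the difference on that day depended on the scaling. The neutrophil markers were higher in Jersey cows on each day as well. Within Jersey cows, however, SLC39A1 was lowest at D250, where the neutrophil sum was highest, with 13287 FPKM. SLC39A1 ranged 3.91-fold in FPKM and 30.1-fold per 1000 FPKM of the summed neutrophil markers. The part of the neutrophil markers in this difference between the breeds was not tested.

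SLC39A7, which releases zinc from the endoplasmic reticulum and Golgi into the cytosol, varied least, with 2.23-fold between its highest and lowest group. It had 53.9, 25.2 and 24.2 FPKM in Kashmiri cows and 42.6, 42.5 and 38.6 FPKM in Jersey cows. In Kashmiri cows it was 2.14-fold lower at D90 and 2.23-fold lower at D250 than at D15, and in the other comparisons the deposited values were less than 2-fold apart. Rescaled to that total, these became 1.72-fold and 1.11-fold lower, and the Jersey level at D90 became 2.14-fold above the Kashmiri one. With the upper quartile they were 1.90-fold and 1.85-fold lower.

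The transcription factor MTF1 was the lowest of the members on average, with a mean of 2.42 FPKM. It had 0.709, 1.23 and 1.45 FPKM for Kashmiri cows at D15, D90 and D250 and 1.12, 2.49 and 7.55 FPKM in Jersey cows. It was higher on each later day in both breeds and higher in Jersey than in Kashmiri cows on each day, in every scaling tried. Jersey D250 stood apart, 3.03-fold above Jersey D90, 6.77-fold above Jersey D15 and 5.20-fold above Kashmiri D250, the last becoming 3.04-fold with FPKM rescaled to that total. The neutrophil marker sum was also higher in Jersey cows on each day and highest at Jersey D250, with 13287 FPKM, and its part in the MTF1 differences was not tested. With the pseudocount of 1 FPKM, the log2 ratio of D250 over D15 in Jersey cows was 2.02. SLC30A1, its known target, was 1.83-fold higher in the same comparison.

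Metallothioneins bind zinc in the cytosol. By name, the table held MT3 and MT4, which were on the list of further zinc genes, and the names MT1A and MT1E were not found. MT3 lay between 0.639 and 1.29 FPKM. MT4 was listed at 0 in every group but Jersey D90, with 0.0484 FPKM. No statement on the level of the common metallothioneins follows from these entries.

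For counts, 1 FPKM was added to both values, and a member was taken as apart when the log2 ratio reached 1 (2-fold) or 2 (4-fold) in size and either group held at least 1 FPKM of it. All 9 members passed this limit on low values in each comparison. In Kashmiri cows, 4 of 9 members were at least 2-fold lower at D90 than at D15 and none was higher, where 33.5% of all genes were apart, 14.7% higher and 18.8% lower. The 4 were SLC30A2, SLC39A7, SLC39A8 and SLC39A14, with log2 ratios of -3.01, -1.07, -1.76 and -1.22. After rescaling to that total, the count was 2 lower and 2 higher, as SLC39A7 (-0.76) and SLC39A14 (-0.93) no longer reached 2-fold and SLC30A1 (1.02) and SLC30A5 (1.03) did. With a pseudocount of 0.1 FPKM it was 4 lower and 2 higher. Between D90 and D250, 1 of 9 was apart, SLC39A8 with 1.53, against 17.7% of all genes, 8.95% higher and 8.77% lower. Between D15 and D250, 3 of 9 were lower, SLC30A2 (-2.31), SLC39A7 (-1.12) and SLC39A14 (-1.21), against 25.7% of all genes, 11.2% higher and 14.5% lower. With FPKM rescaled to that total, that last count became 6, of which 5 were higher and 1 lower.

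In Jersey cows, 2 of 9 members were apart between D15 and D90, SLC30A2 with a log2 ratio of -3.22 and SLC30A5 with 1.01, where 29.8% of all genes were apart, 12.8% higher and 16.9% lower. Between D90 and D250, 3 of 9 were higher, SLC30A2 (2.50), MTF1 (1.29) and the joined SLC30A4 entry (1.04), where 20.9% of all genes were apart, 16.6% higher and 4.22% lower. Between D15 and D250, 4 of 9 were higher, the joined SLC30A4 entry (1.95), SLC30A5 (1.16), SLC39A8 (1.72) and MTF1 (2.02), where 42.4% of all genes were apart, 24.5% higher and 17.9% lower. With FPKM rescaled to that total, the first of these counts became 4 and the second 1. The comparisons within a breed share their samples, so the counts are not independent of each other.

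Between the breeds at D15, 5 of 9 members were apart, against 28.9% of all genes, 15.9% higher and 13.0% lower. The joined SLC30A4 entry (3.25) and SLC39A1 (1.60) were higher in Jersey cows, and SLC30A2 (-2.41), SLC39A8 (-1.34) and SLC39A14 (-1.63) were lower. After rescaling to that total, SLC39A8 (-0.95) no longer reached 2-fold. At D90, 4 of 9 were apart, against 32.9% of all genes, 17.0% higher and 15.9% lower, with the joined SLC30A4 entry (3.83), SLC39A1 (1.31) and SLC39A8 (1.17) higher and SLC30A2 (-2.63) lower. At D250, 2 of 9 were apart, the joined SLC30A4 entry (4.93) and MTF1 (1.80), against 34.5% of all genes, 22.8% higher and 11.7% lower. That count became 3 with either rescaling, 2 higher and 1 lower. SLC30A2 was then at least 2-fold lower in Jersey cows (-1.53 by the total and -1.27 by the upper quartile). With SLC30A4 from its own entry, its log2 ratio at D15 turned to -1.51, and those at D90 and D250 became 0.58 and 0.86, under 2-fold.

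At 4-fold, SLC30A2 was apart in 6 of the 9 comparisons, the joined SLC30A4 entry in 3, MTF1 in 1 and the other members in none. The share of all genes apart at this limit was 7.50%, 1.98% and 4.05% in Kashmiri cows for D15 to D90, D90 to D250 and D15 to D250. It was 6.76%, 4.18% and 12.6% in Jersey cows, and 8.57%, 11.7% and 12.3% between the breeds at D15, D90 and D250.

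**Figure D3:**
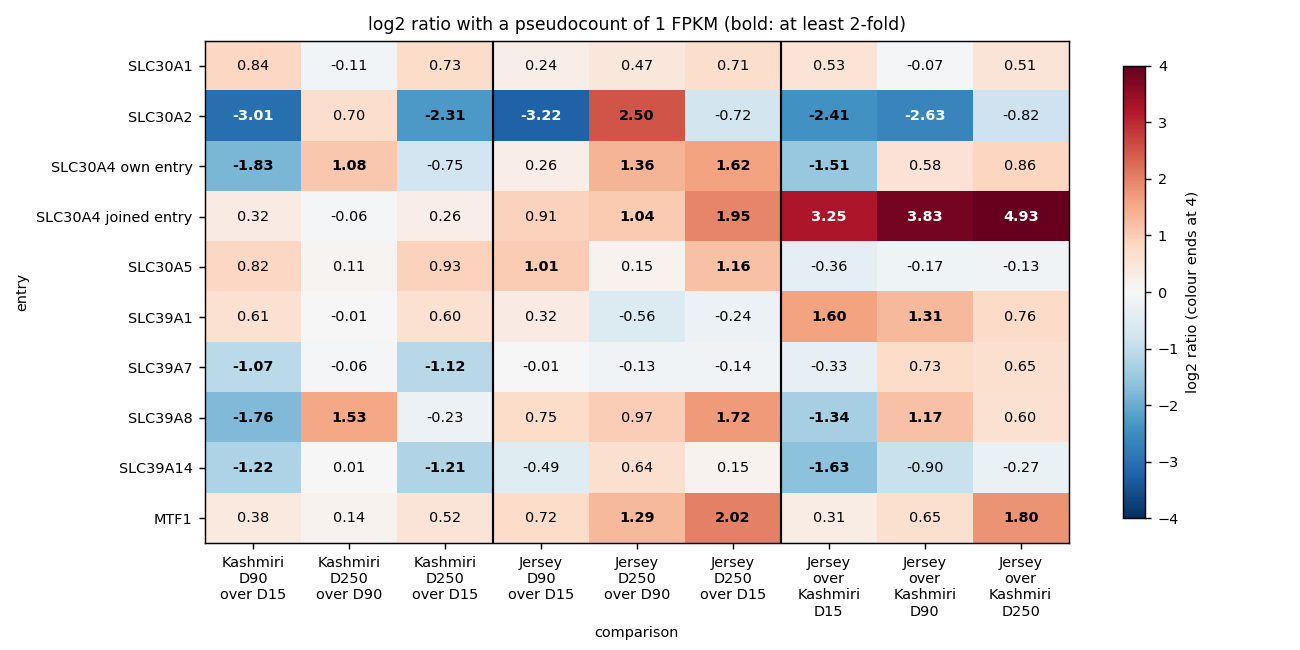
log2 ratios with a pseudocount of 1 FPKM for each entry (rows) in the 9 comparisons (columns), red for higher and blue for lower in the group named first, with ratios of at least 2-fold in bold. The row of SLC30A2 holds the most negative values, down to -3.22 in Jersey cows between D15 and D90, and the joined SLC30A4 entry the most positive, up to 4.93 at D250.

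The median log2 ratio of the members stood near that of all genes between D90 and D250 in Kashmiri cows, with 0.01 and 0.03. It was 0.32 between D15 and D90 in both breeds, against -0.01 for all genes in Kashmiri and -0.07 in Jersey cows. Between D15 and D250 it was 0.26 in Kashmiri and 0.71 in Jersey cows, against -0.04 and 0.07. Between D90 and D250 in Jersey cows it was 0.64 against 0.15. Between the breeds it was -0.33, 0.65 and 0.60 at D15, D90 and D250, against -0.13, -0.03 and -0.10. The scaling moved the median of all genes, most of all between D15 and D250 in Kashmiri cows, to 0.81, and between the breeds at D250, to -0.75, with FPKM rescaled to that total.

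The 4 exporters, with SLC30A4 from its own entry, summed to 67.2, 16.8 and 23.4 FPKM in Kashmiri cows at D15, D90 and D250, and to 16.2, 10.6 and 22.6 FPKM in Jersey cows. SLC30A2 made up 85.4% of the sum in Kashmiri at D15 and 61.5% in Jersey at D15. At D90 in Jersey cows SLC30A5 was the highest exporter, with 46.8% of the sum. At D250 in Jersey cows SLC30A1 was the highest, with 25.3%, and the 4 exporters lay between 5.60 and 5.73 FPKM.

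The 4 importers summed to 168, 86.3 and 133 FPKM in Kashmiri cows and to 146, 185 and 209 FPKM in Jersey cows. SLC39A8 was the highest importer in Kashmiri at D15 and D250 and in Jersey at D250, with 50.2%, 54.2% and 52.7% of the sum, and SLC39A1 was the highest in the other groups. The importer sum was 2.50, 5.15 and 5.69 times the exporter sum in Kashmiri cows and 9.0, 17.5 and 9.23 times in Jersey cows. This ratio within a group does not depend on the scaling, but it does depend on the entry taken for SLC30A4. With the own entry it was above 1 in each group and higher in Jersey cows on each day. With the joined entry the exporters summed to 89.1, 50.0 and 53.3 FPKM in Kashmiri and to 279, 506 and 1039 FPKM in Jersey cows. The ratio was then 1.89, 1.73 and 2.50 in Kashmiri and 0.522, 0.366 and 0.201 in Jersey cows, so that it was lower in Jersey cows on each day. The marker genes of several cell types differed between the same groups, and their part in the ratio was not tested.

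**Figure D4:**
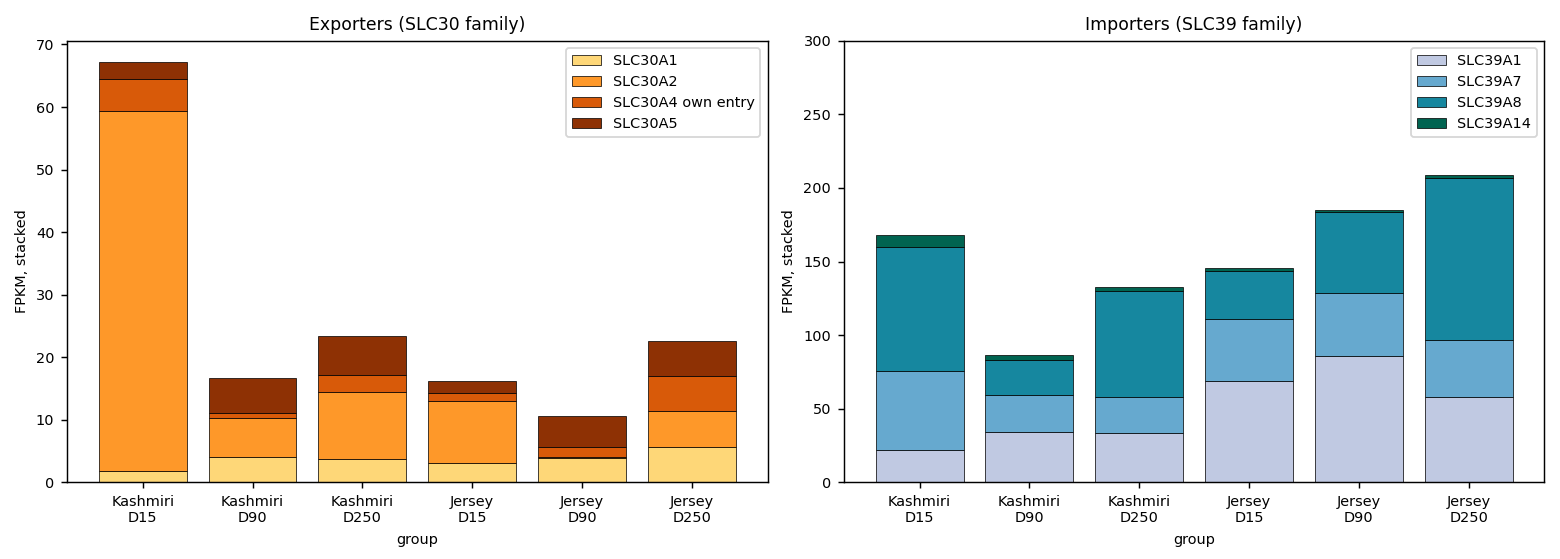
Stacked FPKM of the 4 exporters (left, SLC30A4 from its own entry) and of the 4 importers (right) in the 6 groups, each bar starting at 0, with 1 value per gene and group and no error bars. The exporter bar is highest at Kashmiri D15, at 67.2 FPKM, where SLC30A2 fills most of it, and the importer bar is highest at Jersey D250, at 209 FPKM.

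The members also held different places among the genes of a group. Among the genes with at least 1 FPKM, SLC39A8 was above 90.3%, 75.9% and 92.8% of them in Kashmiri cows at D15, D90 and D250, and above 77.1%, 85.1% and 90.1% in Jersey cows. For SLC30A2 the Kashmiri shares on these days were 86.4%, 42.8% and 59.5%. In Jersey cows SLC30A2 was above 52.5% at D15 and 36.8% at D250, and under 1 FPKM at D90. MTF1 was above 44.1% of the genes in Jersey at D250, and above 17.7% or less in the other groups.

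Of 21 further zinc genes, 18 were found by name and 13 had at least 1 FPKM in a group. Between D15 and D90, SLC39A6 was at least 2-fold higher in Kashmiri cows, 1 of 10 tested with none lower, beside 14.7% higher and 18.8% lower among all genes. In Jersey cows SLC39A6, SLC39A9 and SLC30A6 were higher, 3 of 12 with none lower, beside 12.8% and 16.9%. Between D90 and D250, 0 of 11 were apart in Kashmiri cows, beside 17.7% of all genes, and in Jersey cows TMEM163 was higher and SLC39A11 lower, of 11, beside 16.6% higher and 4.22% lower. Between D15 and D250, 2 of 10 were higher and 1 lower in Kashmiri cows, beside 11.2% and 14.5%, and 6 of 13 were higher and 2 lower in Jersey cows, beside 24.5% and 17.9%. Between the breeds at D15, 2 of 10 were higher and 1 lower in Jersey cows, beside 15.9% and 13.0%. At D90, 1 of 11 was higher and none lower, beside 17.0% and 15.9%, and at D250, 3 of 11 were higher and none lower, beside 22.8% and 11.7%. With so few genes, these counts stand near the shares of all genes in most comparisons, and nothing is read from them.

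SLC39A13, an importer of the early secretory pathway, had the highest mean of these genes. It had 6.35, 7.47 and 6.34 FPKM in Kashmiri cows and 30.2, 22.7 and 24.4 FPKM in Jersey cows, with each Jersey value above each Kashmiri value. It was 4.76-fold, 3.04-fold and 3.84-fold higher in Jersey cows at D15, D90 and D250. The direction held in each scaling tried, and the folds became 6.25, 3.85 and 2.25 with FPKM rescaled to that total. The neutrophil marker sum was also higher in Jersey cows, by 29.2-fold, 11.6-fold and 22.5-fold, as was the macrophage marker sum, by 10.2-fold, 4.68-fold and 4.24-fold, and their part in this difference was not tested.

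SLC39A3 had 6.12, 6.59 and 5.96 FPKM in Kashmiri and 17.3, 8.93 and 5.65 FPKM in Jersey cows, where it was highest at D15. SLC39A11 was highest at D15 in each breed, with 10.1, 5.69 and 4.45 FPKM in Kashmiri and 11.0, 7.41 and 3.00 FPKM in Jersey cows. SLC39A6, an importer first known as an oestrogen-regulated gene, was lowest at D15 in each breed, with 1.92, 6.81 and 6.57 FPKM in Kashmiri and 2.35, 6.54 and 7.11 FPKM in Jersey cows.

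SLC39A9 had 6.70, 4.43 and 6.90 FPKM in Kashmiri and 2.43, 6.23 and 6.75 FPKM in Jersey cows. SLC30A9 had 4.16, 3.94 and 7.79 FPKM in Kashmiri and 2.43, 5.71 and 6.16 FPKM in Jersey cows. For both of these genes Kashmiri cows were lowest at D90 and Jersey cows at D15, except that SLC30A9 in Kashmiri cows was lowest at D15 with either rescaling (log2 ratio, D90 over D15, -0.08 as deposited, 0.23 by the total and 0.09 by the upper quartile).

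SLC30A7, a Golgi exporter, had 1.72, 2.84 and 3.56 FPKM in Kashmiri and 2.23, 4.57 and 9.97 FPKM in Jersey cows, higher on each later day in both. TMEM163, a zinc efflux protein of vesicles, was under 1 FPKM in every group but Jersey D250, with 3.41 FPKM. SLC39A2 had 0.203, 1.18 and 2.77 FPKM in Kashmiri and 1.29, 2.94 and 1.48 FPKM in Jersey cows. Jersey D250 was thus the highest group for SLC30A7 and TMEM163, as for MTF1.

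**Figure D5:**
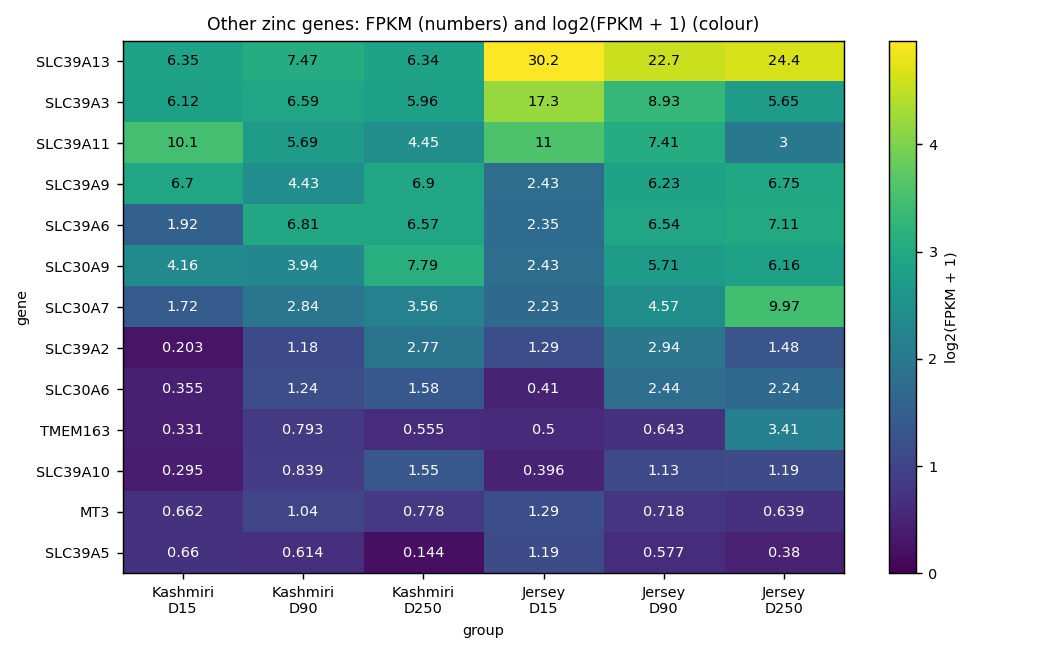
FPKM (numbers) and log2(FPKM + 1) (colour) of the 13 further zinc genes that reached 1 FPKM in a group, ordered by mean FPKM, in the 6 groups. SLC39A13 is brighter in the 3 Jersey columns, at 22.7 to 30.2 FPKM, than in the 3 Kashmiri columns, at 6.34 to 7.47 FPKM.

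The genes with the most similar pattern were sought among 9435 named genes with a symbol, a mean of at least 1 FPKM and no value at 0. Likeness was the root mean square difference between log2 FPKM profiles over the 6 group values, each centred on its own mean. Nearest to SLC30A2 were HHIPL2 (0.20), SLC38A3 (0.27), SDC2 (0.35), TMEM266 (0.35) and COL9A1 (0.36), where the median difference over all genes searched was 2.54. Each of these genes was under 1 FPKM in Jersey at D90, like SLC30A2, so the likeness rests in part on low values. HHIPL2 had 259.9, 26.2 and 52.9 FPKM in Kashmiri and 40.5, 0.763 and 34.6 FPKM in Jersey cows at D15, D90 and D250. Like SLC30A2, it was lowest at D90 in both breeds.

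Nearest to SLC39A8 were STK3 (0.18), SPIN1 (0.23), NCOA4 (0.23), C4orf33 (0.24) and RDX (0.27), with a median of 1.03 over all genes searched. NCOA4, the receptor that delivers ferritin to lysosomes, had 132, 28.5 and 65.9 FPKM in Kashmiri and 35.6, 67.2 and 119 FPKM in Jersey cows. It was lowest at D90 in Kashmiri cows and higher on each later day in Jersey cows, the pattern of SLC39A8. These likenesses rest on 6 group values that share libraries, depth and cell make-up, and carry no test.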

How the data were processed

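RNA of cells captured from milk was sequenced from 17 labelled samples. Reads were trimmed by the authors (Trimmomatic) and aligned with Bowtie and TopHat to the bovine build UMD3.1, and they deposited FPKM from Cufflinks and Cuffdiff, with 1 value per breed and day. The columns named Local were read as Kashmiri, the only other breed of the labels. Which annotation release was used is not clear from the sources used here, and values per library were not analysed here.

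The members and lists were chosen with earlier results of these data known. For a repeated or joined name, the entry whose mean FPKM was highest was taken. All genes means the 21631 distinct names, of which those with at least 1 FPKM in either group were compared. Single folds are plain ratios without a pseudocount. Log2 ratios for counts, and those behind the shares of genes with a lower ratio, had a pseudocount of 1 FPKM. This understates the change of low genes. Named were all members found, the 6 further zinc genes with the highest mean, the 4 with the widest log2 range, and the 5 genes nearest to SLC30A2 and to SLC39A8. MT2A was to be treated likewise but was not found. Tried instead were a pseudocount of 0.1 FPKM, a lower limit of 0.01 FPKM, FPKM rescaled to the total over named entries without 6 milk protein genes, by the upper quartile, or with the median of all genes subtracted, and FPKM summed over the entries of a name. SLC30A4 from its own entry was added after the data were seen. The counting was tested on simulated data. Computation was in Python 3.11.15 with pandas 2.3.3 and numpy 2.4.6, and plots were drawn with matplotlib 3.10.9. No sequence of a member was used here, and 1 item of the marker lists is not reported here.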

Additional observations from a re-analysis of the deposited data

Results flagged for a closer look

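Some entries moved one way between the same days in Kashmiri cows and the other way in Jersey cows, with at least 2-fold in one of the breeds. These differences between the breeds were not tested, since each group has 1 value. The log2 ratios here have no pseudocount.

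Between D15 and D90, the log2 ratio of SLC39A8 was -1.80 for Kashmiri and 0.77 for Jersey cows, and SLC30A4 from its own entry had -2.82 and 0.45. These 4 signs were kept in each scaling tried. The ratio of -2.82 rests on 0.728 FPKM at Kashmiri D90 and was -1.83 with a pseudocount of 1 FPKM. At D90 the epithelial marker sum was lower than at D15 in both breeds, 8.51-fold in Kashmiri and 27.1-fold in Jersey cows, and the neutrophil marker sum was 2.76-fold and 1.10-fold higher. The macrophage marker sum was 5.26-fold and 2.42-fold higher. Other sums moved in opposite directions. The T cell marker sum was 4.43-fold higher in Kashmiri and 2.05-fold lower in Jersey cows, and the B cell marker sum 5.25-fold higher and 2.12-fold lower. The part of these markers was not tested.

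Between D15 and D250, SLC39A8 had -0.23 in Kashmiri and 1.75 in Jersey cows, SLC30A4 from its own entry had -0.96 and 2.28, and SLC39A14 had -1.47 and 0.23. With FPKM rescaled to a total that leaves out the milk protein genes, the Kashmiri ratio turned to 0.78 for SLC39A8 and to 0.05 for SLC30A4, so the opposite movement of these entries depends on the scaling. That of SLC39A14 was kept, with -0.46 and 0.07.

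Between D90 and D250, the joined SLC30A4 entry had -0.0604 in Kashmiri and 1.04 in Jersey cows. The Kashmiri value turned to 0.63 with FPKM rescaled to that total and to 0.04 with the upper quartile.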

How the results depend on the processing

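Of the counts at 2-fold and 4-fold in the 9 comparisons, 57 of 63 and 54 of 63 recomputed values stayed within 1.5 times the reported one. With FPKM rescaled to a total that leaves out the milk protein genes, the 2-fold count became 2 (from 1) for D90 to D250 and 6 (from 3) for D15 to D250 in Kashmiri cows, and 4 (from 2) for D15 to D90 and 1 (from 3) for D90 to D250 in Jersey cows. The 4-fold count became 1 (from 0) for D90 to D250 and 0 (from 1) for D15 to D250 in Kashmiri cows, and 0 (from 1) for D15 to D250 in Jersey cows. The last was also 0 with the upper quartile and with the median of all genes subtracted. With a pseudocount of 0.1 FPKM the 4-fold count between the breeds at D250 became 2 (from 1). With SLC30A4 from its own entry, the 2-fold count became 2 (from 1) for D90 to D250 in Kashmiri cows and 1 (from 2) between the breeds at D250. The 4-fold counts between the breeds became 1 (from 2) at D15, 1 (from 2) at D90 and 0 (from 1) at D250. In the same setting the log2 ratio of SLC30A4, Jersey over Kashmiri at D15, reversed from 3.25 to -1.51. No other log2 ratio of at least 1 in size reversed, and 519 of 567 recomputed log2 ratios of members kept their sign and stayed within 1.5-fold. Many of these could not move. The limit of 0.01 FPKM changed no member's value, and the settings on entries could change SLC30A4 only. Such settings raise the share that stayed, for the counts as well. With FPKM rescaled to that total, 28 log2 ratios of members moved and 53 stayed. No paired analysis was possible because each group has 1 value, and no sample could be left out.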
